A study of Mus musculus with 91 samples.

Results

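The mature miRNAs named miR-297, miR-466, miR-467 and miR-669 are 4 sequence-related families that lie mostly in 1 intron of Sfmbt2. They were taken by name, with the family number followed by a letter, a hyphen or the end of the name, from a table of small RNA counts in mouse embryos and cells. The rule found 78 of the 1504 miRNAs listed. The miR-297 family has 6 members, the miR-466 family 30, the miR-467 family 13 and the miR-669 family 29. By arm of the hairpin precursor, 35 members are 3p, 33 are 5p and 10 carry no arm in their name. All 78 were counted at least once, and 76 had more than 3 counts in at least 1 library.

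Sfmbt2 encodes a Polycomb-group protein and is an imprinted gene in the mouse, expressed from the paternal allele. The miRNAs of its intron are copies of a few hairpins that multiplied in the rodent lineage. They are known as miRNAs of the trophoblast and placenta, and deleting the cluster in mice disturbs placental development. A miRNA hairpin is cut into a 5p and a 3p arm, and usually 1 of the arms is kept as the mature strand that guides silencing through its seed, bases 2 to 8.

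Small RNA was sequenced with CAS-seq, a low-input method that removes adapter dimers with Cas9, from 91 libraries, of which 88 have a group from their labels. The 62 libraries of dissected extraembryonic ectoderm (Exe) and epiblast (Epi) came from E6.5 and E7.5 embryos in 16 groups of 4 or 3. Their mothers were B6D2F1 females (C57BL/6J x DBA2), and their fathers carried an Oct4-EGFP transgene on a C57BL/6J background, which all these embryos therefore share. Besides Control embryos, there were embryos edited in Dnmt1 (Dnmt1-KO), the maintenance DNA methyltransferase, in both de novo enzymes (Dnmt3a/3b-DKO) and in all 3 genes (Dnmt-null). Mutants were made by injecting zygotes with mRNA of a cytosine base editor and guides that create stop codons, so that each embryo carries its own edits. A further 8 libraries were of androgenetic haploid embryonic stem cells (AG-haESCs), which hold a sperm-derived genome and were grown with 2i and Lif. They were wild type (WT), the DKO line O48, in which the H19 and IG imprinting control regions are deleted, or Mir-6KO, single-cell clones of DKO cells that also lack 6 miRNA genes. The last 18 were semi-cloned (SC) embryos, made by injecting AG-haESCs into oocytes. The labels name their tissue only as embryo, while the study describes the E6.5 WT, Dnmt-null and DKO samples as epiblast. The tissue of the DKO-Dnmt-null and the E7.5 SC samples is not given in the sources used here. At E6.5 these came from WT cells, with or without edited Dnmt genes (Dnmt-null), and from DKO cells, again unedited or edited (DKO-Dnmt-null). At E7.5 they were Control, made with DKO-AG-haESCs, and Mir-6KO-Dnmt-null, with 3 libraries in each of the 6 groups. Both DKO-based Dnmt-null embryos thus carry the H19 and IG deletions as their controls do. The sources do not say that replicates are separate embryos, so p-values measure the spread between these libraries, which may be technical.

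In RefSeq (GRCm38.p6) Sfmbt2 lies at chr2:10370440-10595253. Of 81 hairpin genes of the 4 families, 71 lie inside it, within 51.6 kb between positions 10466663 and 10518279, and 10 lie elsewhere. GENCODE places all 71 in 1 intron (10461473 to 10523944), intron 10 of the transcript Sfmbt2-201 and 11 of Sfmbt2-205, and none overlaps an exon. No named miRNA gene of another family lies inside Sfmbt2. All hairpins of 65 members are inside the gene, those of 5 members (miR-297a-3p and -5p, miR-466f, miR-466f-3p and -5p) are both inside and elsewhere, and those of 8 members are elsewhere.

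The mature sequences that could be printed here are those of 7 of the 8 members encoded elsewhere, and they are shown for their dinucleotide repeats. They are RefSeq sequences of GRCm38.p6, 5′ to 3′, with the seed in capitals.
miR-466k (chr3:85467396-85467418, plus strand): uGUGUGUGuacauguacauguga
miR-669n (chr3:115979905-115979924, plus strand): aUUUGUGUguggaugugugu
miR-467g (chr5:34732872-34732892, minus strand): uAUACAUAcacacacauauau
miR-467h (chr9:115381898-115381919, plus strand): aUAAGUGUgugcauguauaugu
miR-466j (chr10:60960802-60960824, plus strand): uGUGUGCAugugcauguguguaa
miR-467f (chr11:69635419-69635439, minus strand): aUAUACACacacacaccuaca
miR-466i-3p (chr13:17747552-17747573, plus strand): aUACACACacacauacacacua
The 7 seeds all differ. The sequences fall into 2 kinds: U and G make up 90% of miR-669n and 68.2% to 73.9% of miR-466k, miR-467h and miR-466j, while A and C make up 86.4% of miR-466i-3p, 85.7% of miR-467f and 71.4% of miR-467g. The longest strict alternation of A and C or of U and G is 12 bases in miR-467f and 11 in miR-466i-3p. Hairpins of 6 of the 10 genes outside Sfmbt2 lie within another gene and overlap none of its exons. They are Mir466i in Cdk13, Mir466k in Gm37240, Mir466q in Tnik, Mir467f in Fxr2, Mir467g in Grk4 and Mir669n in Slc30a7. Cdk13, Gm37240 and Slc30a7 are on the minus strand, and Fxr2 and Grk4 on the plus strand. The miRNAs printed above that lie in these genes are on the opposite strand.

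Several members could not be told apart in the counts, although none of the 7 printed above is among them. In the main table, 23 members fell into 11 sets with identical counts in every library, which is 29.5% of the members, against 8.64% of the 1401 other miRNAs detected (121 in 54 sets). Allowing 98% overlap of the counts, the 78 members hold 64 distinct count profiles. The most abundant profile is shared by 5 members, miR-466a-3p, miR-466b-3p, miR-466c-3p, miR-466e-3p and miR-466p-3p: miR-466a-3p and miR-466b-3p totalled 659296 and 658890 counts, overlapped by 99.9% and were equal in 56 of 91 libraries. Other members with 1 profile are miR-467a-5p with miR-467b-5p, miR-669a-5p with miR-669p-5p, miR-669a-3p with miR-669o-3p, miR-467a-3p with miR-467d-3p and miR-297b-3p with miR-297c-3p. A read counted for each of these names enters a sum more than once, so shares are given with all members and with members alike counted once, and counts of members that passed a test are followed by the number of profiles. Values below are CPM, the counts scaled to the total miRNA count of the library, unless named otherwise, and libraries of a group are given in the order of their replicate numbers.

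Library totals ranged from 45242 to 26970637 counts. The epiblast miRNAs miR-302a-3p, miR-302b-3p, miR-302d-3p and miR-367-3p summed to 47832 to 210611 CPM in the Epi libraries and to 5541 to 45617 CPM in the Exe libraries. No Exe library reached the lowest Epi value. Some libraries stood apart. The 2 libraries labelled Mir-6KO AG-haESC held 238769 and 267003 CPM of this list, while the WT and O48 cells held 918 to 3889 CPM. Their label is therefore in doubt, and they enter no comparison here except through the spread of the AG-haESC fit. The SC WT library 3 held 21179 CPM of the list, against 213506 and 194255 in the other SC WT libraries. Blood markers reached 7947 CPM at most, in an E6.5 Exe Dnmt1-KO library.

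The 4 families together took a larger share of the small RNA in Control Exe than in Control Epi or in AG-haESCs. In Control Exe at E6.5, the members held 18.3%, 19.6%, 25.1% and 13.3% of all miRNA counts in the 4 libraries, and at E7.5 they held 16.9%, 18.1%, 14.3% and 15.1%. The Control Epi libraries held 6.71%, 10.1%, 2.59% and 2.12% at E6.5, and 0.864%, 0.815% and 0.707% at E7.5. No Exe library of any genotype was below 9.32%, and among the Epi libraries 1 reached 10.1%. With members alike counted once, the mean share was 10.4% ± 2.64 (SD, n = 4) in E6.5 Exe Control, 8.01% ± 0.831 in E7.5 Exe Control (n = 4), 2.50% ± 1.70 in E6.5 Epi Control (n = 4) and 0.355% ± 0.0420 in E7.5 Epi Control (n = 3). The WT AG-haESCs held 1.45%, 1.43% and 1.47% with all members. In bulk samples, fewer cells of a type and less RNA per cell cannot be told apart.

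**Figure D1:**
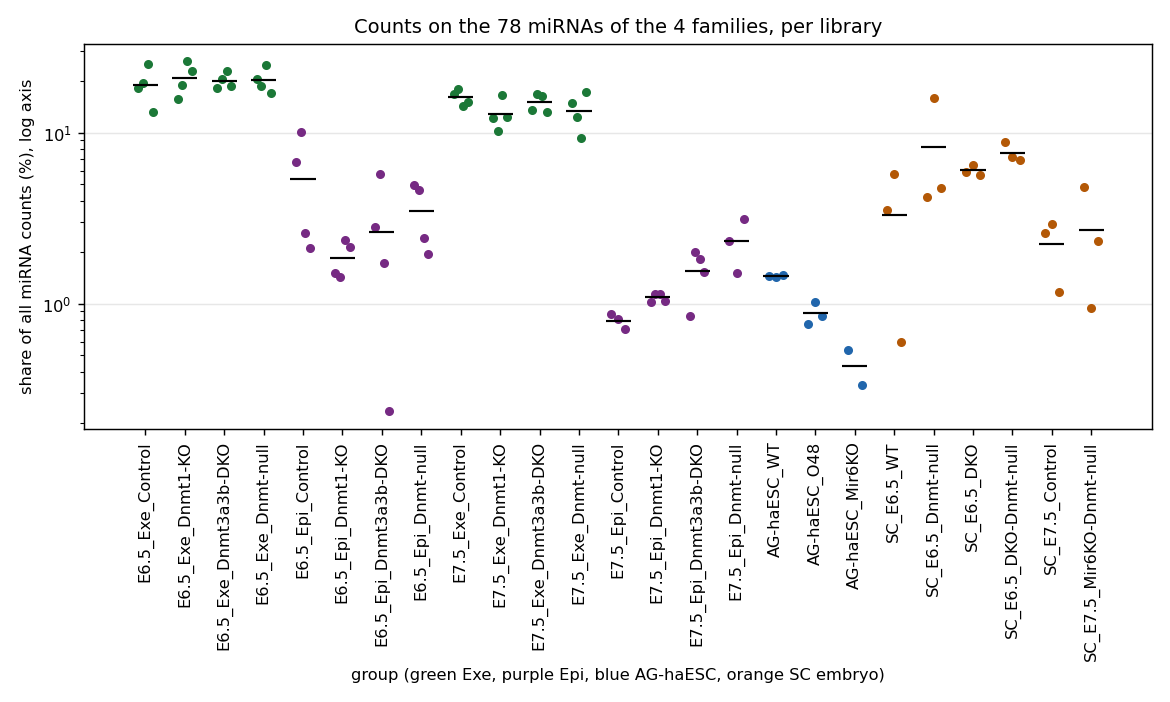
Share of all miRNA counts that fell on the 78 members in each library (percent, log axis), by group, with 1 point per library and a bar at the group mean; green is Exe, purple Epi, blue AG-haESCs and orange SC embryos. All Exe libraries lie at 9.32% or above, the E7.5 Epi Control libraries between 0.707% and 0.864%, and the SC embryos between 0.595% and 15.9%.

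With all names counted, the miR-466 family made up most of these counts. In E6.5 Exe Control it held 11.3% of all miRNA counts on average, the miR-467 family 4.35%, the miR-669 family 3.25% and the miR-297 family 0.178%. The order was the same in E7.5 Exe Control, with 10.3%, 3.44%, 2.26% and 0.105%. The 5 names of the miR-466a-3p profile each enter the miR-466 share, at 19891 to 19911 CPM at E6.5 and 18662 to 18679 CPM at E7.5. The same reads are thus counted 5 times. With members alike counted once the lead of miR-466 is smaller, by an amount not given here. The leading member of each family in E6.5 Exe Control was miR-466a-3p, miR-467c-5p, miR-669c-5p and miR-297c-3p. Levels of near neighbours in the intron could differ widely. The hairpin of miR-467c, 103.5 kb from the start of Sfmbt2, gave 15324 CPM of its 5p arm in E6.5 Exe Control, while both arms of miR-669k, 104.9 kb from the start, gave 0 and 1.24 CPM. Of 51 members with a single hairpin, inside Sfmbt2, the median was 99.7 CPM in this group and the highest 19911 CPM (miR-466a-3p). Several of them, miR-466a-3p among these, share their counts with names that have several hairpins. Such values are not the level of 1 hairpin.

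The arm that was kept differed by family. In E6.5 Exe Control, the 3p arm held 99.5% of the counts of both arms for miR-466a (19911 against 99.7 CPM) and 99.1% for miR-466e (19911 against 190 CPM). For miR-467c, the 3p arm held 29.7 CPM against 15324 CPM of the 5p arm, and for miR-467b 17.5 against 9624 CPM. The 5p counts of miR-467b are the same as those of miR-467a-5p, and the 3p arm was 15.8% of miR-467a. The miR-669 family was mostly 5p: miR-669c-3p had 84.5 CPM against 9535 CPM of miR-669c-5p, and the 3p arm was 35.8% of miR-669a. In the miR-297 family the 3p arm led, with 88.7% for miR-297b and 98.1% for miR-297c. The 3p counts of miR-297b and miR-297c are the same, and those of miR-466a and miR-466e belong to a profile shared with other names. The shares of these names, and of miR-467b and miR-669a, are thus not the arm choice of single hairpins. Some hairpins departed from their family in this group. The 3p arm was 78.8% of miR-669f, while it was 32.2% of miR-466f and 22.0% of miR-466l. These miR-466 arms have low counts, and their 3p shares were 37.6% and 76.6% in E7.5 Exe Control. In WT AG-haESCs they were 92.0% and 86.7%. The 3p share listed for miR-466o, 18.1%, sets its 3p arm against 5p counts that are the same as those of miR-466b-5p. Over all embryo libraries of Exe and Epi, the 3p share of the miR-466 family ranged from 93.4% to 100% and that of the miR-467 family from 0% to 16.7%. The miR-466 counts were thus mostly 3p and the miR-467 counts mostly 5p in every library of both tissues.

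**Figure D2:**
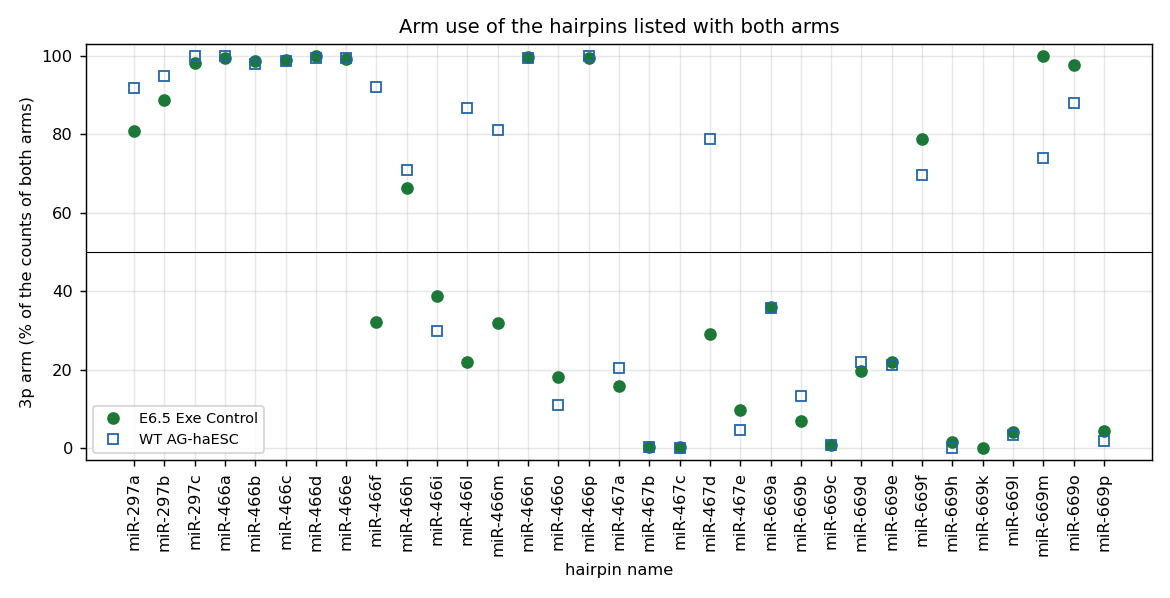
Share of the 3p arm among the counts of both arms (percent) for each hairpin name listed with both arms, in E6.5 Exe Control (green circles, mean CPM of 4 libraries) and WT AG-haESCs (open blue squares, 3 libraries). Most miR-466 names with high counts lie near 100% and miR-467b and miR-467c near 0% in both. Hairpins with few counts, such as miR-466l and miR-466m, differ. Some names share the counts of an arm with others, such as miR-467b-5p with miR-467a-5p.

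Comparing Exe with Epi in Control embryos asks which members mark the extraembryonic lineage. At E7.5, 52 of the 70 members tested were higher in Exe (39 profiles) and none was lower, while 16.9% of all 728 miRNAs tested were higher and 9.2% lower (adjusted p under 0.05, edgeR). The median log2 fold change of the members was 4.38, against -0.06 for all miRNAs tested, and was 4.30 when 20 members listed at 0 in all Epi Control libraries were set at their bound and 1 member at the limit of detection in both tissues was left out. By family, 4 of 6 miR-297, 22 of 29 miR-466, 8 of 10 miR-467 and 18 of 25 miR-669 members passed.

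The abundant members moved by similar amounts at E7.5. The shared profile of miR-466a-3p stood at 19876, 21349, 16295 and 17197 CPM in Exe and 1023, 928 and 833 CPM in Epi (log2 fold change 4.20, SE 0.28, edgeR adjusted p = 2.4e-13). For miR-669a-5p, with 4535, 4382, 4281 and 4329 CPM in Exe and 212, 177 and 172 CPM in Epi, the log2 fold change was 4.41 (SE 0.28, adjusted p = 1.6e-13). The libraries of the tissues did not overlap for these members. miR-467c-5p (4.18), miR-467a-5p (4.25) and miR-669c-5p (4.19) differed to the same extent, and miR-297b-3p by 3.36 (SE 0.72, adjusted p = 4.71e-04). The members with the highest fitted change were listed at 0 in the Epi libraries. miR-669h-5p had 102, 123, 118 and 154 CPM in Exe, at least 241-fold higher than the 3 counts that could have been missed over the 3 Epi libraries. The bounds were at least 172-fold for miR-669o-5p, 91.2-fold for miR-466o-3p and 74.6-fold for the shared profile of miR-466f and miR-466f-5p.

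At E6.5 the difference was smaller and less even. Of 55 members tested, 23 were higher in Exe (15 profiles) and none was lower, against 12.4% of all 458 miRNAs tested higher and 9.61% lower, and the median log2 fold change was 1.90. Of the families, 12 of 25 miR-466 members, 5 of 9 miR-467, 5 of 16 miR-669 and 1 of 5 miR-297 members passed. miR-467d-5p had 3270, 4992, 4721 and 4782 CPM in Exe and 1118, 1558, 456 and 434 CPM in Epi (log2 fold change 2.28, SE 0.50, adjusted p = 0.0012). For miR-669c-5p, with 8015, 13639, 10574 and 5913 CPM in Exe and 2277, 3560, 1135 and 944 CPM in Epi, it was 2.21 (SE 0.49, adjusted p = 0.00126). miR-466h-5p (2.36), miR-466g (2.18), miR-467c-5p (1.90) and miR-466a-3p (1.65) also rose in Exe. For miR-297b-3p the difference was 1.63 with an adjusted p of 0.087, and its libraries overlapped.

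Replicates of E6.5 Epi Control differed among themselves. Libraries 1 and 2 had the higher member shares (6.71% and 10.1%) and the lower sums of the epiblast list (157052 and 129048 CPM), and libraries 3 and 4 had the lower shares (2.59% and 2.12%) and the higher sums (186156 and 198436 CPM). The part of tissue content in this spread was not tested. The 23 members became 10 when either Epi Control library 3 or 4 was left out, and 13 without Exe Control library 3.

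**Figure D3:**
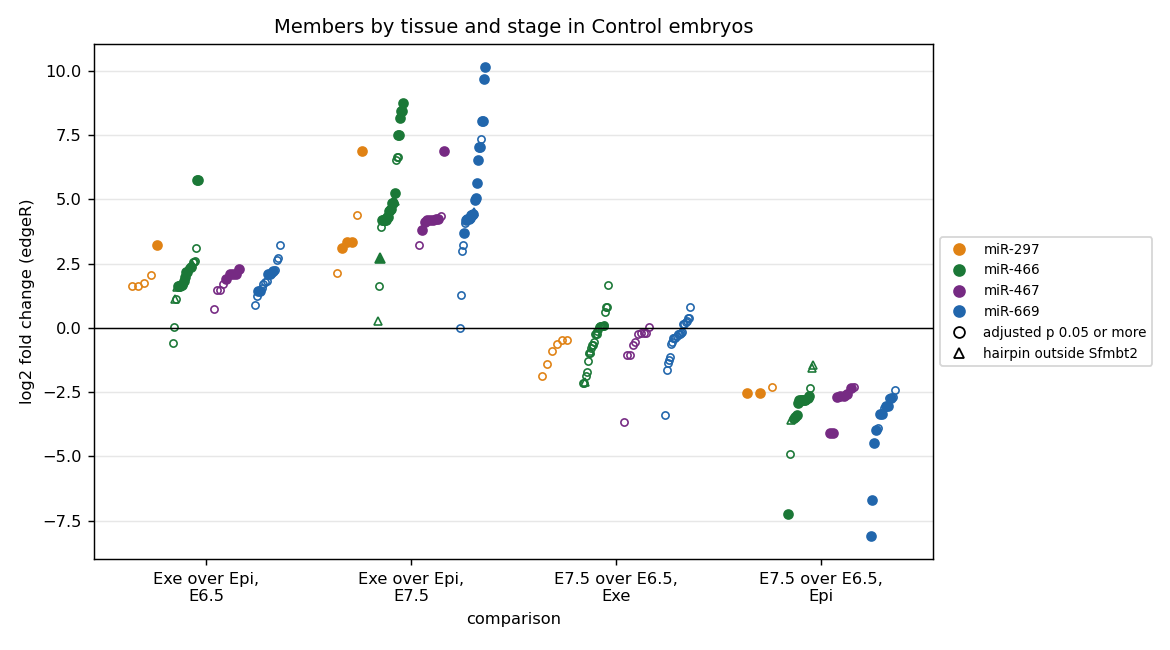
Log2 fold change of each member tested in Control embryos (edgeR), Exe over Epi at each stage and E7.5 over E6.5 in each tissue; filled symbols have an adjusted p under 0.05, triangles have hairpins outside Sfmbt2 only, and colours give the family. Between tissues 54 of 55 members at E6.5 and 69 of 70 at E7.5 lie above 0, and in Epi all 44 lie below 0 from E6.5 to E7.5.

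From E6.5 to E7.5, most members tested fell in Epi, and none passed the test in Exe. In Control Epi, 29 of 44 members tested fell (20 profiles), none rose and all 44 had a negative log2 fold change, with a median of -2.81. Of all 572 miRNAs tested 14.3% fell and 8.57% rose. miR-466a-3p went from 8037, 11830, 2672 and 2188 CPM to 1023, 928 and 833 CPM, with no overlap (-2.81 on the log2 scale, SE 0.63, adjusted p = 0.00108). miR-467a-3p, which shares its counts with miR-467d-3p, went from 643, 1127, 416 and 327 CPM to 33.1, 42.0 and 40.7 CPM (-4.08, SE 0.75, adjusted p = 1.56e-04). Further values were -3.05 for miR-669a-5p, -2.71 for miR-669c-5p, -2.57 for miR-467c-5p and -4.47 for miR-669f-3p. Listed at 0 at E7.5 were miR-669o-5p (at least 90.4-fold lower), miR-466o-3p (at least 49.6-fold) and miR-669h-5p (at least 34.0-fold). Marker lists moved with stage in the same libraries. The miR-290 cluster list (miR-291a-3p, miR-292a-3p, miR-294-3p and miR-295-3p), which marks pluripotent cells and Exe, summed to 59126 to 63078 CPM in Epi Control at E6.5 and to 14438 to 14904 CPM at E7.5, and the epiblast list to 129048 to 198436 and to 200391 to 210611 CPM. Their part in the fall was not tested.

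In Control Exe none of 68 members changed between the stages by edgeR, where 9.44% of all miRNAs did. Unadjusted p was under 0.05 for 4 members, and DESeq2 called 6. Of all miRNAs, 21.3% had such a p together with a log2 fold change over 0.5. miR-466a-3p was at 21490, 17746, 27967 and 12440 CPM at E6.5 and at 19876, 21349, 16295 and 17197 CPM at E7.5, a log2 fold change of 0.06 (SE 0.22). The other leading members were within their spread as well, with 0.03 (SE 0.19) for miR-467c-5p and -0.41 (SE 0.30) for miR-669c-5p. The comparisons of tissue and of stage use the same Control libraries, so they are not independent of each other.

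Members encoded outside Sfmbt2 were rare. They held at most 0.175% of the counts in any Exe library. miR-466i-5p, whose hairpin lies within Cdk13 on the opposite strand, was found at 0, 71.2, 77.8 and 172 CPM in E7.5 Exe Control. It had 0, 170 and 7.39 CPM in Epi, which overlap (log2 fold change 0.27, SE 1.52, adjusted p = 0.949). Its 3p arm, with 220, 270, 181 and 192 CPM in Exe and 49.4, 12.2 and 27.7 CPM in Epi, was higher in Exe by 2.73 (adjusted p = 0.0108), and miR-466k by 4.98 (adjusted p = 0.0383). The sequence of miR-466i-3p printed above is nearly all A and C, and how reads of similar sequence were assigned to it was not tested. The members miR-467f, miR-467g, miR-467h and miR-466j averaged under 1 CPM over the groups.

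Inactivating Dnmt genes asks whether these miRNAs depend on DNA methylation. In E6.5 Exe, none of 53 members changed in any of the 3 mutants by edgeR, where 0% of all 376 miRNAs did in Dnmt1-KO, 0.532% in Dnmt3a/3b-DKO and 0.532% in Dnmt-null. Unadjusted p was under 0.05 for 1, 1 and 4 members, and DESeq2 called 1 in Dnmt-null. Of all miRNAs, 8.78%, 9.04% and 13% had such a p together with a log2 fold change over 0.5. Medians of the members were -0.08, -0.11 and -0.09. The member share was 21% ± 4.5 in Dnmt1-KO, 20.2% ± 2.16 in Dnmt3a/3b-DKO and 20.3% ± 3.36 in Dnmt-null, beside 19.1% ± 4.85 in Control (SD, n = 4 each).

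In E6.5 Epi, most members leaned lower in each mutant, and by edgeR only 1 passed the test, in Dnmt-null. None of 34 members was called by edgeR in Dnmt1-KO (0.733% of all 409 miRNAs were) or in Dnmt3a/3b-DKO (3.42%). DESeq2 called a few in Dnmt3a/3b-DKO, and edgeR without a filter a few in both, as given in the section on processing. All 34 had a negative log2 fold change in both, with medians of -1.53 and -1.11, and 18 and 6 had an unadjusted p under 0.05. Of all miRNAs, 12% and 14.9% had one together with a log2 fold change over 0.5. miR-466a-3p was at 1616, 1544, 2571 and 2119 CPM in Dnmt1-KO and at 8037, 11830, 2672 and 2188 CPM in Control, which overlap (-1.66, SE 0.63, adjusted p = 0.248). These comparisons share the Control libraries whose spread is given above. In Dnmt-null, 1 member was lower and none higher, against 4.65% and 8.31% of all miRNAs, and the median was -0.71. It was miR-669p-3p, with 55.9, 167, 69.3 and 34.9 CPM in Control and 0 in all 4 Dnmt-null libraries, which hold 45242 to 123169 counts. The bound is a fall of at least 9.49-fold (edgeR adjusted p = 0.0416), and leaving out any 1 of the 8 libraries lost the call. Marker lists moved in the same libraries. The epiblast list was 47832 to 99270 CPM in Dnmt-null and 129048 to 198436 CPM in Control, and the miR-290 list 18788 to 39547 and 59126 to 63078 CPM, without overlap in either. In Dnmt3a/3b-DKO the miR-290 list was 34194 to 47420 CPM, also without overlap, and in Dnmt1-KO 48439 to 65406 CPM, with overlap. Their part in these values was not tested.

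At E7.5, Exe and Epi of the mutants differed. In Exe, none of 66 members was called in Dnmt1-KO or Dnmt3a/3b-DKO (5.03% and 3.02% of all 597 miRNAs were). Unadjusted p was under 0.05 for 0 and 1 members, and DESeq2 called none. Of all miRNAs, 16.8% and 8.21% had such a p together with a log2 fold change over 0.5. In Dnmt-null Exe 1 member rose, against 6.87% of all miRNAs, and none fell, against 3.02%. It was miR-669c-5p, with 6064, 7700, 5432 and 6105 CPM in Control and 14611, 12857, 8683 and 8569 CPM in Dnmt-null, without overlap (0.82, SE 0.19, adjusted p = 0.00868). Without Dnmt-null library 2, 1 member was higher and 5 were lower. The most abundant member, miR-466a-3p, had 13293, 16480, 12330 and 9742 CPM in Dnmt-null Exe and did not pass (-0.52, SE 0.17, adjusted p = 0.0634). The epiblast list was 17167 to 27241 CPM in Dnmt-null Exe and 33048 to 45617 CPM in Control Exe, and its part in the result was not tested.

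In E7.5 Epi, 19 members were higher in Dnmt-null and fewer in the other mutants by edgeR. DESeq2 called more members in both other mutants, and edgeR without a filter more in Dnmt3a/3b-DKO, as given in the section on processing. Of 42 members tested, 3 rose in Dnmt1-KO (2 profiles), 4 in Dnmt3a/3b-DKO (3 profiles) and 19 in Dnmt-null (11 profiles), and none fell, while 8.28%, 5.98% and 16.4% of all 652 miRNAs rose and 7.98%, 1.69% and 17.3% fell. The median log2 fold change of the members was 0.41, 0.82 and 1.40, against -0.15, 0.02 and -0.19 for all miRNAs tested. In Dnmt-null 8 of 16 miR-466 members, 5 of 8 miR-467 and 6 of 14 miR-669 members rose, and none of 4 miR-297 members, which had a negative log2 fold change in all 3 mutants. The 3 members called in Dnmt1-KO are 7.14% of those tested, below the 8.28% of all miRNAs. Of the 42 members tested, 37 have hairpins inside Sfmbt2 only, and the 19 that rose in Dnmt-null are among these.

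In Dnmt-null Epi, the profile of miR-466a-3p had 2617, 3634 and 1728 CPM, against 1023, 928 and 833 CPM in Control (1.27, SE 0.29, adjusted p = 0.0027). miR-467a-3p had 253, 238 and 207 CPM against 33.1, 42.0 and 40.7 CPM (2.36, SE 0.37, adjusted p = 1.09e-04). For miR-669a-5p the values were 748, 695 and 525 CPM against 212, 177 and 172 CPM (1.57, SE 0.30, adjusted p = 8.03e-04), and for miR-669c-5p 1532, 1438 and 782 CPM against 389, 344 and 214 CPM (1.75, SE 0.29, adjusted p = 2.06e-04). None of these members overlapped between the groups. miR-466n-3p (1.79), miR-669a-3p (1.78) and miR-466h-5p (2.07) rose too, the last with an adjusted p of 0.0265 that was lost when 5 of the 6 libraries were left out in turn. Called in spite of overlap was miR-669o-5p, counted 7 times in 1 Dnmt-null library and listed at 0 in the other Dnmt-null and all Control libraries, so it rests on that library.

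Of the other mutants fewer members passed. In Dnmt1-KO, miR-466n-3p (112, 198, 283 and 159 CPM against 74.0, 85.7 and 43.1 CPM in Control) rose by 1.29 (adjusted p = 0.0376) and miR-669a-5p by 0.86 (adjusted p = 0.0485). Without Control library 2, Dnmt1-KO library 3 or the other genotypes in the fit, 0 members were called in Dnmt1-KO. Leaving out Control library 1 or 3 left 1 higher, leaving out Dnmt1-KO library 2 gave 0 higher and 1 lower, and leaving out Dnmt1-KO library 4 gave 4 higher and 1 lower. In Dnmt3a/3b-DKO, miR-669c-5p (645, 931, 928 and 819 CPM) rose by 1.31 (adjusted p = 0.00544), miR-669a-5p by 1.29 (adjusted p = 0.00813) and miR-466n-3p by 1.43 (adjusted p = 0.0383). The number was 12 without Dnmt3a/3b-DKO library 1, which has the lowest member share of that group (0.851%, beside 1.99%, 1.82% and 1.53%).

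Marker miRNAs moved with the members in E7.5 Epi. The epiblast list summed to 207849, 210611 and 200391 CPM in Control and to 104300, 117070 and 163764 CPM in Dnmt-null, and all 4 of its miRNAs are in the table. The miR-290 cluster list summed to 14438 to 14904 CPM in Control and to 23108 to 29547 CPM in Dnmt-null. In Dnmt1-KO and Dnmt3a/3b-DKO it summed to 17299 to 26654 and 15581 to 21633 CPM. A list for mesenchyme and decidua (miR-143-3p, miR-145a-5p, miR-126a-3p, miR-199a-3p and miR-214-3p) fell, from 373 to 785 CPM in Control to 132 to 164 CPM in Dnmt-null. Within Dnmt-null the library with 163764 CPM of the epiblast list had the lowest member share (1.52%), and the others had 2.31% and 3.12%. The Control libraries were deeper, with 1623256 to 2325698 counts against 272867 to 488108. Their part in the result was not tested.

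**Figure D4:**
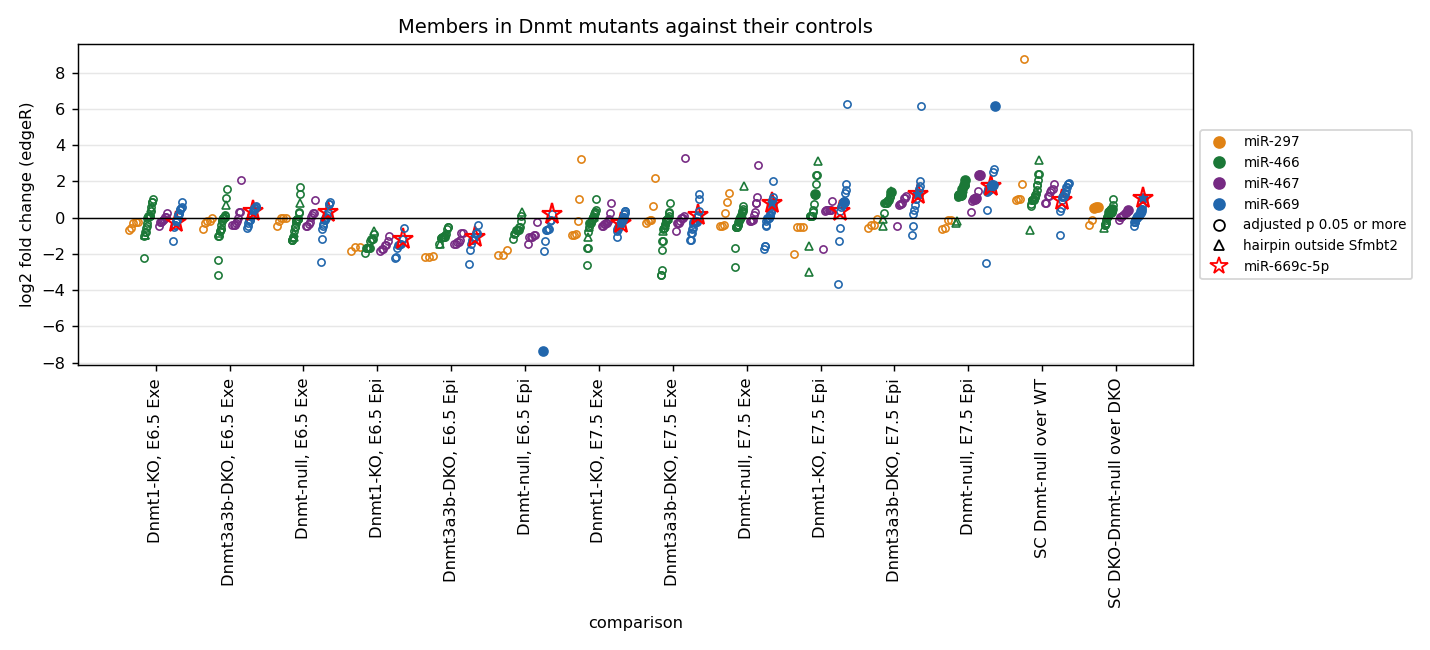
Log2 fold change (edgeR) of each member tested in each mutant against its control; colours give the family, filled symbols an adjusted p under 0.05, triangles members with hairpins outside Sfmbt2 only, and stars miR-669c-5p (with a filled centre where it passed). In E6.5 Epi all 34 members lie below 0 in Dnmt1-KO and Dnmt3a/3b-DKO and 31 of 34 in Dnmt-null; in E7.5 Epi most lie above 0, with a median of 1.40 in E7.5 Dnmt-null Epi.

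The difference between tissues was tested as an interaction. At E7.5, the Exe over Epi difference was smaller in Dnmt-null than in Control for 19 of 70 members (12 profiles) and larger for none, against 5.91% and 1.1% of all 728 miRNAs. The change was -2.04 on the log2 scale for miR-466a-3p (SE 0.34, adjusted p = 1.80e-04), -1.81 for miR-669a-5p (SE 0.33, adjusted p = 5.26e-04), -2.50 for miR-466h-5p (SE 0.67, adjusted p = 0.0165) and -1.49 for miR-467c-5p (SE 0.37, adjusted p = 0.0092). Without Epi Control library 3 there were 10 such members and without Epi Dnmt-null library 2 there were 11. At E6.5, none of 55 members was called in this test, nor any of all 458 miRNAs (0%). Unadjusted p was under 0.05 for 9 members, and DESeq2 called 1. Of all miRNAs, 13.1% had such a p together with a log2 fold change over 0.5.

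The share of miR-669c-5p within the families did not have the same order of Dnmt-null and control samples everywhere. As a share of the counts on all members, with members alike counted once, it held 8.30%, 9.87%, 8.51% and 9.10% in E7.5 Exe Control and 18.8%, 15.1%, 14.4% and 18.9% in E7.5 Exe Dnmt-null. In E6.5 Epi it held 8.04% to 9.62% in Control and 13.8% to 19.6% in Dnmt-null, and in E7.5 Epi 7.09% to 10.3% in Control and 10.7% to 14.5% in Dnmt-null. The libraries of the groups did not overlap in these 3 cases, and they did in E6.5 Exe, with 8.92% to 13.8% in Control and 11.9% to 15.4% in Dnmt-null. In SC embryos at E6.5 it held 8.05%, 4.87% and 40.0% in WT and 11.9%, 7.77% and 10.2% in Dnmt-null, which overlap, the 40.0% being library 3. At E7.5 the order was the opposite, without overlap, with 27.2%, 41.2% and 31.5% in SC Control and 19.7%, 17.2% and 16.9% in Mir-6KO-Dnmt-null. This member was taken up because its level in E7.5 Exe stood out, so the shares are a description. By contrast, miR-466a-3p held 25.5% to 27.4% of the member counts in E7.5 Exe Control and 17.1% to 21.5% in Dnmt-null.

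**Figure D5:**
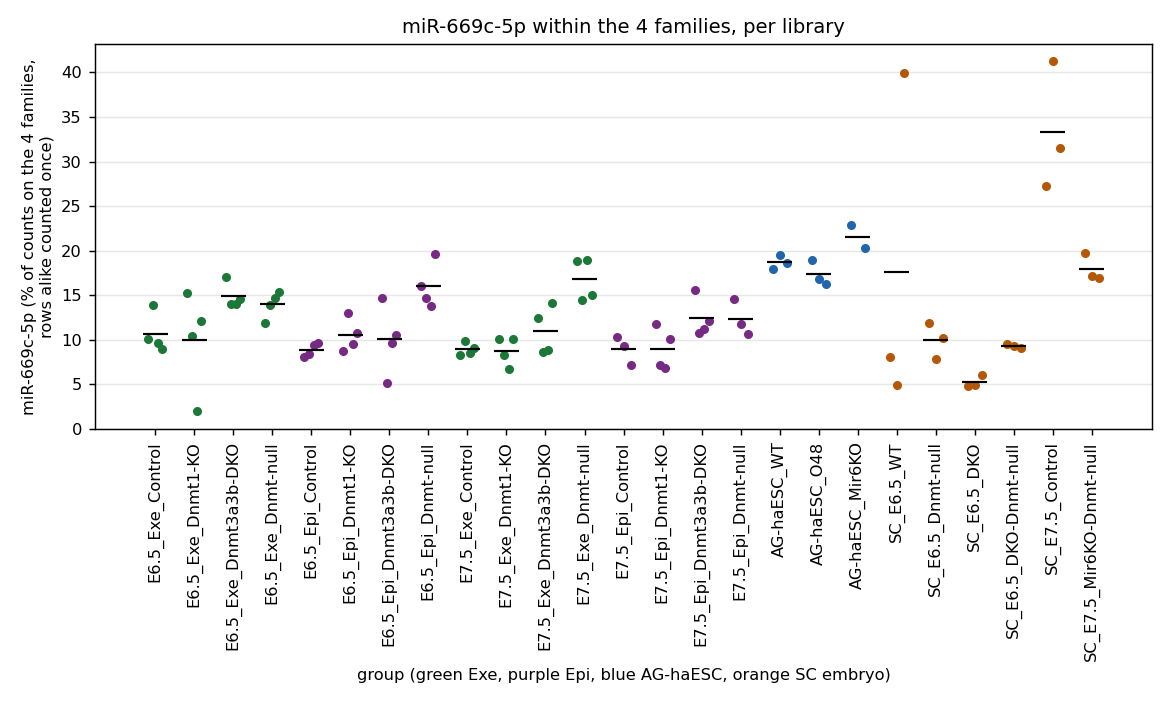
miR-669c-5p as percent of the counts on all members in each library (members alike counted once), by group, with a bar at the group mean; green is Exe, purple Epi, blue AG-haESCs and orange SC embryos. The share lies between 7.09% and 13.8% in the Control Exe and Epi libraries and between 10.7% and 19.6% in the Dnmt-null ones; SC WT library 3 lies at 40.0% and the SC E7.5 Control libraries between 27.2% and 41.2%.

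The AG-haESCs have a genome from sperm only and so carry only the allele of Sfmbt2 that is expressed in the embryo. WT cells had 1253, 1247 and 1268 CPM of miR-466a-3p and 1338, 1421 and 1401 CPM of miR-669c-5p, so that both were at a similar level. O48 cells had 625, 809 and 763 CPM of miR-466a-3p, without overlap (-0.75, SE 0.13, adjusted p = 0.00672), and 769, 906 and 692 CPM of miR-669c-5p (-0.78, SE 0.24, adjusted p = 0.0788). In all, 6 of 61 members were lower in O48 (2 profiles, miR-466a-3p and miR-466d-3p) and none higher, against 11.5% and 2.2% of all 773 miRNAs. The median was -0.74 for the members and -0.28 for all miRNAs tested, and no member was called with RLE size factors, with factors computed without the members, or with no filter. The epiblast list was 918 to 1658 CPM in O48 and 3636 to 3889 CPM in WT, and its part in the result was not tested. miR-467d-5p was low in AG-haESCs, with 63.7, 61.2 and 68.7 CPM in WT beside 956, 908 and 968 CPM of miR-467a-5p.

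In SC embryos the level varied strongly among replicates. The E6.5 WT embryos held 3.53%, 5.76% and 0.595% of their counts on the members, where the last is library 3, the one that stood apart in its markers. Dnmt-null SC embryos held 4.20%, 15.9% and 4.72%, and DKO SC embryos 5.92%, 6.48% and 5.67%. No member of 51 was called in Dnmt-null or in DKO against WT, where 1.52% and 0.217% of all 461 miRNAs were. Unadjusted p was under 0.05 for 13 and 12 members, DESeq2 called 4 and 6, and medians were 1.19 and 1.13. Of all miRNAs, 18.9% and 13% had such a p together with a log2 fold change over 0.5. Without WT library 3, 2 members were higher in Dnmt-null and 0 in DKO, and without WT library 2, 1 was higher in Dnmt-null. miR-669c-5p had 1346, 1147 and 1669 CPM in WT and 2726, 5718 and 2434 CPM in Dnmt-null, which do not overlap (0.99, SE 0.38, adjusted p = 0.226).

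In embryos from DKO cells at E6.5, Dnmt-null was compared with the DKO controls. Of 63 members tested, 13 were higher in DKO-Dnmt-null (8 profiles) and none lower, against 18.9% and 16.4% of all 603 miRNAs, so the share of members called was near that of all miRNAs. miR-669c-5p changed most, from 1340, 1503 and 1649 CPM to 3955, 3144 and 3071 CPM (1.08, SE 0.10, adjusted p = 6.05e-08), and held 4.78%, 4.95% and 6.07% of the member counts in DKO and 9.47%, 9.23% and 9.09% in DKO-Dnmt-null. The other changes were smaller, with 0.57 for miR-297b-3p, 0.53 for miR-297a-3p, 0.46 for miR-466n-3p and 0.28 for miR-466a-3p. The number of members called was 5, 4 and 6 without DKO library 1, 2 or 3, and without DKO-Dnmt-null library 1 there were 7 higher and 4 lower. DKO-Dnmt-null libraries come from a table of their own, which lists 72 of the 78 members and only miRNAs with counts, so table and genotype cannot be told apart. The epiblast list was 129530 to 146408 CPM in them and 176985 to 195694 CPM in DKO, and its part in the result was not tested.

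At E7.5, no member of 51 was called in Mir-6KO-Dnmt-null against Control SC embryos by edgeR or DESeq2, where 3.08% of all 585 miRNAs were by edgeR. None had an unadjusted p under 0.05, while 10.8% of all miRNAs had one together with a log2 fold change over 0.5. The libraries had wide ranges in both groups, with 2.59%, 2.93% and 1.17% of counts on the members in Control and 4.82%, 0.942% and 2.32% in Mir-6KO-Dnmt-null. miR-669c-5p was the most abundant member in Control, with 4195, 7858 and 2162 CPM and 27.2% to 41.2% of the member counts, and had 5215, 923 and 2193 CPM in Mir-6KO-Dnmt-null (-1.06, SE 0.59, adjusted p = 0.601).

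SC embryos were last set beside the AG-haESCs that they were made from. Against WT AG-haESCs, WT SC embryos at E6.5 had 2 members higher and 1 lower of 51 tested, where 17.4% and 21.9% of all 603 miRNAs were. miR-467d-5p was at 553, 815 and 81.3 CPM in SC embryos (2.34, SE 0.71, adjusted p = 0.034), and miR-669b-3p at 20.7, 28.7 and 34.8 CPM beside 4.86, 3.99 and 3.93 CPM (2.17, SE 0.67, adjusted p = 0.0356). miR-297a-5p, with 9.07, 6.38 and 8.65 CPM in the cells, was listed at 0 in SC embryos, at least 3.00-fold lower. Without SC WT library 3, 17 members were higher and 2 lower, and the result thus rests on that library. Without SC WT library 1 there was 1 higher and without library 2 there was 1 lower, and 0 without any of the 3 AG-haESC libraries in turn.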

How the data were processed

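Small RNA of 91 libraries was analysed, 88 with a group. Per the study's methods and the submitters' notes, reads were trimmed with fastp 0.20.1, mapped with Bowtie 1.2.1.1 to GRCm38 and counted on miRBase miRNAs, and tested with DESeq2 1.30.1. The authors deposited raw read counts per miRNA, from PCR-amplified low-input libraries, so intervals and floors cover counting error only. A further deposited count table of 90 columns was not used, and 2 of its columns have no equal in the table used. Here, edgeR 4.0.16 (R 4.3.3) quasi-likelihood tests were fitted with TMM factors and filterByExpr (minimum count 10) over all miRNAs of a fit, with Benjamini-Hochberg adjustment, and a miRNA was called at an adjusted p under 0.05. A bound takes 3 counts over a group as its floor. CPM are counts scaled to the library total. Alternatives were DESeq2 1.42.0, other factors, filters and samples, a replicate block, members alike counted once and the leaving out of each library. Fits were tested on simulated data. No 2 libraries of a group agreed within sampling noise.

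Named members were the 2 highest of each family with both of their arms and, per comparison, up to 5 called members with the largest change and no overlap. All others named here, such as miR-466i and miR-466k, and the share of miR-669c-5p were taken up after their values were seen. The rule named miR-467d-5p and miR-669f-3p in some comparisons. The level of miR-467d-5p in AG-haESCs beside miR-467a-5p and the arms of miR-669f were taken up after their values were seen. The members and lists were chosen with earlier results of these data known. The group of 3 AG-haESC libraries of line 408 was not given by the labels, and they entered no comparison.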

Additional observations from a re-analysis of the deposited data

Results flagged for a closer look

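The Exe over Epi difference at E7.5 changed between Control and Dnmt-null for 19 members in the interaction test (edgeR, adjusted p under 0.05), and all 19 had a smaller difference in Dnmt-null. On the log2 scale the change was -2.04 for miR-466a-3p and miR-466e-3p, and -2.03 for miR-466b-3p, miR-466c-3p and miR-466p-3p, which share nearly all counts. It was -1.89 for miR-466d-3p, -1.79 for miR-466h-3p, -2.50 for miR-466h-5p and -2.10 for miR-466n-3p. In the miR-467 family it was -1.39 for miR-467a-5p and miR-467b-5p, -1.49 for miR-467c-5p and -1.34 for miR-467d-5p. In the miR-669 family it was -2.09 for miR-669a-3p and miR-669o-3p, -1.81 for miR-669a-5p and miR-669p-5p and -1.16 for miR-669c-5p. For miR-669o-5p the fitted change was -5.68, but it was listed at 0 in all Epi Control libraries, so this value depends on the prior count and is no bound.

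In E6.5 Epi Dnmt1-KO, library 4 stood apart in the share of the miR-297 family, with 0.0279% of all miRNA counts, where the next library had 0.0144% and the lowest 0.0128%. Of 182 groups of values tested this way, about 1 in 20 would stand apart by chance.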

How the results depend on the processing

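Of 658 values of the members named by the rule under the alternatives, 552 stayed on their side of the threshold, 106 lost their call and 0 changed direction. These members were picked as called, with large changes and libraries that did not overlap, so a change of direction was unlikely from the start. Members alike entered as separate values. Counts did turn: without library 2 of the mutant, E7.5 Epi Dnmt1-KO went from 3 higher to 1 lower and E7.5 Exe Dnmt-null from 1 higher to 1 higher and 5 lower, and without DKO-Dnmt-null library 1 that comparison went from 13 higher to 7 higher and 4 lower.

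Replicate numbers were not used as pairs in the main fits, since no fit had a correlation over 0.1 in every pair. This rule cannot exclude pairing. Between Exe and Epi, the median correlation of same-numbered libraries was above that of other pairs in each genotype at each stage. The medians were 0.116 against -0.032 in E7.5 Dnmt1-KO, with a lowest same-number value of 0.0325, but -0.0055 against -0.0065 in E6.5 Dnmt1-KO. The main tests of Exe against Epi and of the interaction treated the tissues as independent. With a replicate block, 0 members were called in E6.5 Epi Dnmt-null, 1 in E7.5 Epi Dnmt1-KO and 0 in SC WT against AG-haESCs, and the other counts stayed within 1.5 times.

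With the thresholds of the study's methods (log2 fold change over 0.5 and unadjusted p under 0.05), which 8.21% to 47.1% of all miRNAs passed, the counts of the 3 mutants, in the order Dnmt1-KO, DKO, Dnmt-null, were 1, 1 and 2 in E6.5 Exe and 18, 6 and 3 in E6.5 Epi. They were 1 and 6 for the last pair in E7.5 Exe, and 8 and 20 for the first pair in E7.5 Epi. They were 36 for Exe against Epi at E6.5, 9 and 33 for the interaction at E6.5 and E7.5, 4 for stage in Exe, 10 for O48, 13 and 12 for SC Dnmt-null and DKO, and 5 for DKO-Dnmt-null. DESeq2 called 1 in E6.5 Exe Dnmt-null, 2 and 3 in E6.5 Epi Dnmt3a/3b-DKO and Dnmt-null, 6 and 13 in E7.5 Epi Dnmt1-KO and Dnmt3a/3b-DKO, 36 for Exe against Epi at E6.5, 1 for the E6.5 interaction, 6 for stage in Exe, 4 and 6 for SC Dnmt-null and DKO, and 5 for SC WT against AG-haESCs. Without a filter there were 5, 6 and 2 in the E6.5 Epi mutants, 15 in E7.5 Epi Dnmt3a/3b-DKO, 3 for stage in Exe, 0 for O48, and 8 and 4 for SC Dnmt-null and DKO. RLE factors and TMM without the members each gave 1 for stage in Exe and 0 for O48. With only the groups compared in the fit there were 0 in E6.5 Epi Dnmt-null, 0 in E7.5 Epi Dnmt1-KO and 10 in the E7.5 interaction. The cause was not tested. The range of 8.21% to 47.1% spans all comparisons and is not the share that belongs to each count. For DKO-Dnmt-null, 31% of all 603 miRNAs passed the methods' thresholds, beside 5 of 63 members, a smaller part. For the epiblast of E6.5 Dnmt1-KO it was 12% of 409 miRNAs, beside 18 of 34 members, a larger part. Shares of all miRNAs are not given for the DESeq2 and no-filter counts, so these counts alone show neither excess nor deficit.

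With members alike counted once, an alternative chosen after seeing the data, 11 were called in E7.5 Epi Dnmt-null, 14 for Exe against Epi at E6.5, 12 in the E7.5 interaction and 2 in O48. The mean share was then 10.4%, 11.2%, 10.9% and 11.3% in E6.5 Exe (Control, then the mutants in that order), 8.01%, 6.37%, 7.51% and 7.5% in E7.5 Exe, 0.906% and 1.61% in E6.5 Epi Dnmt1-KO and Dnmt-null, and 0.355%, 0.525%, 0.717% and 1.06% in E7.5 Epi. It was 0.832%, 0.522% and 0.245% in WT, O48 and the libraries labelled Mir-6KO AG-haESC, and 3.03% and 3.94% in SC DKO and DKO-Dnmt-null. Without the most abundant miRNA in the total it was 0.991% and 1.29% in E7.5 Epi Control and Dnmt1-KO, 1.63% and 0.574% in WT and the libraries labelled Mir-6KO, and 7.35% and 8.82% in SC DKO and DKO-Dnmt-null.

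Leaving out each library in turn, the counts ranged from 0 to 0 in E6.5 Epi Dnmt-null, 1 to 6 in E7.5 Exe Dnmt-null, 0 to 5, 3 to 12 and 16 to 20 for the mutants of E7.5 Epi in the same order, 10 to 25 for Exe against Epi at E6.5, 42 to 51 at E7.5, 10 to 21 for the E7.5 interaction, 0 to 2 for stage in Exe, 22 to 29 for stage in Epi, 5 to 6 for O48, 0 to 2 for SC Dnmt-null, 4 to 17 for DKO-Dnmt-null and 0 to 19 for SC WT against AG-haESCs.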

Other observations

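The 3 libraries of the AG-haESC line 408, whose group the labels do not give, held 1.33%, 1.25% and 1.41% of their miRNA counts on the members. Their level of miR-466a-3p was 1106, 967 and 1175 CPM, and miR-669c-5p was 19.4%, 19.6% and 17.8% of the member counts, with members alike counted once.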
